A study of Rattus norvegicus with 18 samples.

Results

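Sox9, the simple epithelial keratins Krt7, Krt8, Krt18 and Krt19, and the tubule injury markers Havcr1, Clu and Spp1 were followed in rat cortical collecting ducts after lipopolysaccharide (LPS). The 8 genes were taken by symbol from a table of 32883 genes. They were chosen with earlier results of these data known, so counts among them are descriptions. Ducts were dissected from kidneys of male Sprague-Dawley rats 3 h after an intraperitoneal injection of LPS, a bacterial outer membrane component, or of Vehicle, which was normal saline. The rats carried no genetic change that the labels name, and no age is given. Each group held 3 numbered samples, LPS 1 to 3 and Vehicle 1 to 3, and each sample was sequenced as 3 libraries, 18 libraries in all. The study calls the samples paired, and the comparison shows which transcripts of the dissected segment differ early after systemic LPS.

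The cortical collecting duct is made of principal cells, which reabsorb sodium and water, and intercalated cells, which handle acid and base. Sox9 encodes a transcription factor that is low in the mature tubule and is induced in surviving epithelial cells after kidney injury. Keratins 8 and 18 pair with each other in the intermediate filaments of simple epithelia, and keratins 7 and 19 are further type II and type I partners in ductal epithelia. KIM-1 (Havcr1), clusterin (Clu) and osteopontin (Spp1) are widely used markers of tubule injury. KIM-1 is known chiefly from the proximal tubule, while clusterin and osteopontin are also made in distal segments.

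Levels are in TPM, a transcript abundance corrected for length and scaled to the same total in each library, and each sample value is the mean of its 3 libraries. A library listed 11399 to 11841 genes at 1 TPM or more in LPS and 11932 to 12704 in Vehicle; sequencing depth is unknown because TPM keeps no read number. Collecting duct markers were abundant: 13 principal cell markers summed to between 9600.9 and 13247.1 TPM in LPS samples and between 16958.2 and 18563.9 TPM in Vehicle samples, and 9 of them were called lower with LPS, beside 22.2% of all tested genes. After median-ratio scaling, described below, 2 of the 13 were called lower, Nr3c2 and Kcnj1, beside 3.71% of all tested genes. After quantile normalization 7 of the 13 were called lower, beside 4.67%. Across 11 intercalated cell markers the sums were 9487 to 11952.6 TPM in LPS and 12654.8 to 12752.3 TPM in Vehicle. Of these 11, 2 were called lower, against 0 after median-ratio scaling and 1 after quantile normalization. Single libraries stood apart in markers of neighbouring segments. Library 1 of LPS 2 had the highest summed loop of Henle markers, 564.1 TPM against a median of 174.5 over all libraries. Library 1 of Vehicle 1 had 11655.5 TPM of distal convoluted and connecting tubule markers, against a next highest value of 3852. Vehicle 1 was also high as a sample, with a mean of 5920.2 TPM, against 147 to 678 TPM in the other samples. Leaving out its library 1 therefore removes only part of that signal. Whether each numbered sample is a different rat is not stated, so the tests weigh differences against the spread seen among these samples, part of which may be technical. In such bulk RNA a change in the number of cells of a type and a change in RNA per cell cannot be told apart.

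Sox9, Krt8, Krt18, Krt19 and Spp1 were higher after LPS, while Krt7 and Clu did not pass the test and Havcr1 was too low to be tested. A change is LPS minus Vehicle on the log2(TPM + 1) scale, fitted over all tested genes with limma and the sample number as a block, and a gene was called at an adjusted p under 0.05. Of the 7 tested genes, 5 were called higher and 0 were called lower. Over all 12393 tested genes 29.4% were called, 7.17% higher (889 genes) and 22.2% lower (2757 genes). The tested genes had a median change of -0.38, and after median-ratio scaling, which moved that median to -0.02, 821 genes were called higher and 460 lower. Under this scaling 3 of the 7 were called higher, namely Sox9, Krt8 and Krt18. All 3 LPS samples lay above all 3 Vehicle samples for 4 of the 7, namely Sox9, Krt8, Krt18 and Krt19, against 9.88% of all tested genes, and all 3 lay below for none of the 7, against 46.9%. The shares of all tested genes called in other settings used here differed: 6.62% higher and 3.71% lower after median-ratio scaling, 6.53% and 4.67% after quantile normalization, and 5.31% and 10.7% without the libraries that stood apart. They were 7.36% higher and 29.2% lower without the block, and 9.59% and 42.7% with the 18 libraries entered singly. Each of the 7 had a mean above 1 TPM in Vehicle as well, so none was tested only through its level in LPS.

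**Figure D1:**
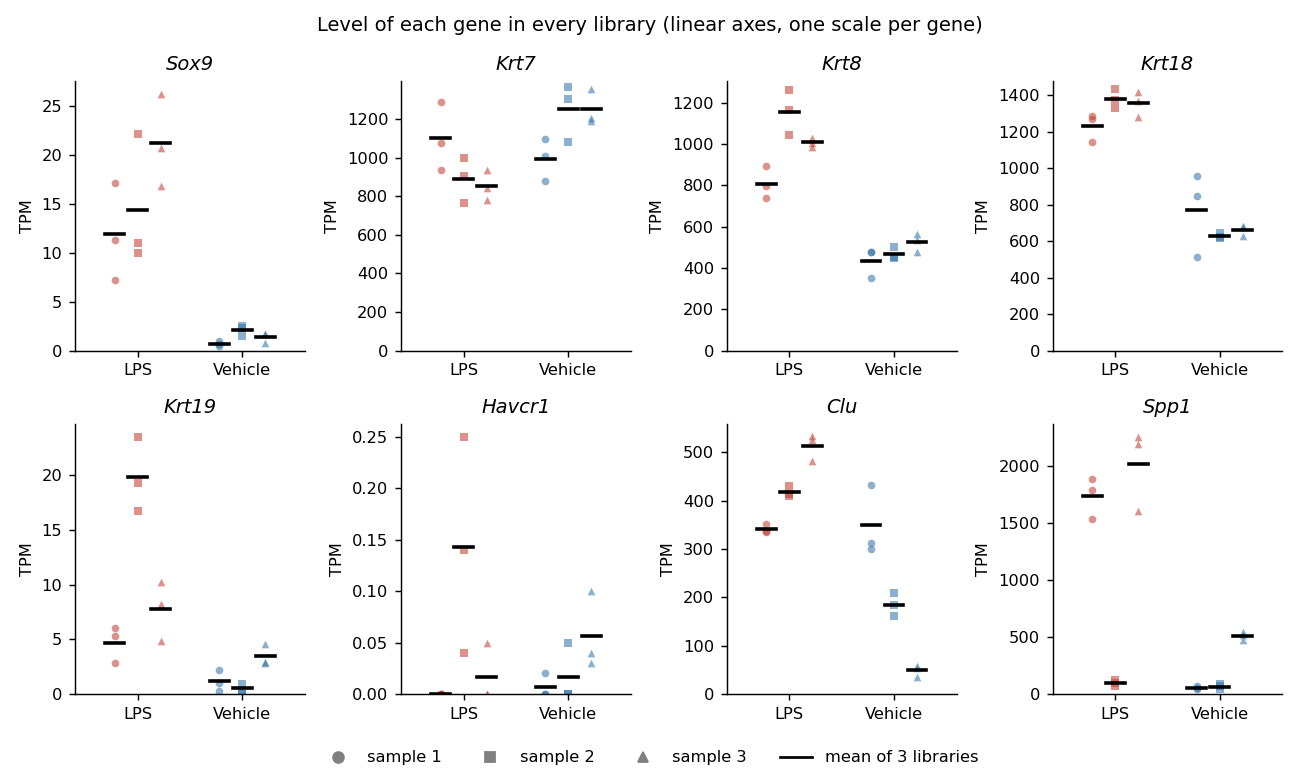
TPM of each of the 8 genes in every library, with LPS left of Vehicle; symbols mark samples 1 to 3 and black bars the mean of 3 libraries. Sox9, Krt8, Krt18 and Krt19 show LPS samples above all Vehicle samples, LPS 2 has 97.9 TPM of Spp1 beside 1736.5 and 2018.3 TPM in the other LPS samples, and Havcr1 stays at or below 0.25 TPM in every library.

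Sox9 (ENSRNOG00000002607) averaged 15.8 ± 4.83 TPM in LPS and 1.41 ± 0.728 TPM in Vehicle (SD, n = 3 each), a ratio of means of 11.2. Its level was 11.9, 14.4 and 21.2 TPM in LPS 1 to 3, against 0.683, 2.14 and 1.42 TPM in Vehicle 1 to 3. Every LPS sample lay above every Vehicle sample, and so did the single libraries: the lowest LPS library had 7.21 TPM and the highest Vehicle library 2.55 TPM. The change was 2.77 (SE 0.26, 95% interval 2.15 to 3.38; adjusted p = 0.00151, limma), and the 3 pairs gave 2.87, 2.22 and 3.21. Without the libraries that stood apart the change was 2.65 (adjusted p = 0.0188, limma). The call was lost when sample 3 of both groups was left out (adjusted p = 0.196), a setting in which 0 of the 12393 genes passed limma's test and 738 higher and 1463 lower had an unadjusted p under 0.05.

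The other Sox genes that were called were lower with LPS. The list held 15 other Sox genes that the deposited values cover, of which 5 were tested; 0 were called higher and 2 lower with limma (beside 7.17% and 22.2% of all tested genes), with a median change of -0.46 beside -0.38 for all tested genes. Sox12, a SoxC factor, fell by 2.82 on the log2 scale (adjusted p = 0.00545, limma). It stood at 5.93, 0.95 and 1.55 TPM in LPS 1 to 3, against 20.4, 23.5 and 23.1 TPM in Vehicle 1 to 3, so that all LPS samples lay lower. Sox6, a SoxD factor, fell by 1.31 (adjusted p = 0.0104, limma), to 2.96 TPM in LPS, against 8.81 TPM in Vehicle. Both stayed called lower after median-ratio scaling (adjusted p = 0.0327 for Sox12 and 0.0369 for Sox6, limma), beside 3.71% of all tested genes. After quantile normalization both were also called lower (adjusted p = 0.0288 and 0.0386, limma), beside 4.67%. The most abundant Sox gene that was not called, Sox13, averaged 6.29 TPM in LPS and 6.84 TPM in Vehicle. Among Sox9 and these tested genes, Sox9 had the highest level in LPS and Sox12 the highest in Vehicle.

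Genes of pathways that act on Sox9 in other settings moved in both directions. The list holds ligands and receptors of the EGF, Notch and Hedgehog families, the YAP and TEAD factors with some of their targets, and the ubiquitin ligase Wwp2. Of its 23 tested members 8 were called higher and 4 lower, beside 7.17% and 22.2% of all tested genes, with a median change of -0.08. Among the calls, Ccn1, a secreted matrix protein and YAP target, was higher by 3.47 (adjusted p = 0.0204, limma). Its level was 8.6, 88.7 and 111 TPM in LPS 1 to 3, against 4.84, 1.25 and 4.91 TPM in Vehicle 1 to 3. All LPS samples were above Vehicle, but LPS 1 was far below the other LPS samples.

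Of the Notch receptors, 1 was called in each direction. Notch1 averaged 4.08 TPM in LPS and 0.664 TPM in Vehicle (change 1.45, adjusted p = 0.0327, limma), whereas Notch3 averaged 0.48 TPM in LPS and 2.18 TPM in Vehicle (change -1.11, adjusted p = 0.0308, limma). Notch2, which was not called, averaged 5.24 TPM in LPS and 6.83 TPM in Vehicle. The Notch effectors Hey1 and Heyl, both transcriptional repressors, were higher by 2.85 (adjusted p = 0.00342) and 1.32 (adjusted p = 0.0184). Hes1, another repressor downstream of Notch and the most abundant member of the list that was not called, averaged 126 TPM in LPS and 170 TPM in Vehicle. On the lower side, Ccn2, a matrix protein related to Ccn1, fell by 2.26 (adjusted p = 0.0249). Ptch1, the Hedgehog receptor, fell by 1.33 (adjusted p = 0.0168), and Amotl2, an angiomotin that binds YAP, fell by 0.70 (adjusted p = 0.0421). Thus the related YAP targets Ccn1 and Ccn2 differed in direction in the same samples. After median-ratio scaling 4 of the 23 were called higher and 1 lower, beside 6.62% and 3.71% of all tested genes. Of the genes named, Hey1, Heyl and Ptch1 stayed called, while Notch1 (adjusted p = 0.0717), Notch3 (0.0686), Ccn1 (0.0654), Ccn2 (0.0823) and Amotl2 (0.161) did not. Quantile normalization likewise left Notch1, Notch3, Ccn1 and Ccn2 uncalled, and also Amotl2 (adjusted p = 0.121, limma) and Ptch1 (0.0527). Under it 4 of the 23 were higher and 0 lower, beside 6.53% and 4.67% of all tested genes. Without the libraries that stood apart 4 were higher and 3 lower, beside 5.31% and 10.7% of all tested genes. Tested EGF receptor ligands and receptors, which the naming rule did not select, are given by their range: Tgfa, Egfr, Erbb2, Erbb3 and Hbegf changed by between -0.08 and 1.70, and of these Tgfa and Egfr were called. Neither stayed called after median-ratio scaling (adjusted p = 0.0683 for Tgfa and 0.0719 for Egfr, limma) or quantile normalization (0.0588 and 0.0656). Tead3 and Dll1, also called higher, stayed called after median-ratio scaling (adjusted p = 0.0253 and 0.021, limma) and quantile normalization (0.022 and 0.0212).

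Few keratins made up most keratin RNA in either group. Of 47 keratin rows in the table, 7 had a mean of 1 TPM or more over all libraries and 40 had less. Krt7, Krt8 and Krt18 were the abundant ones, and Krt19 was a minor species in both groups. Krt8 and Krt18, whose products pair with each other, were each called higher in LPS, and Krt7 did not pass the test.

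Krt8 (ENSRNOG00000009779), the type II partner, averaged 992 ± 175 TPM in LPS and 476 ± 45.4 TPM in Vehicle (SD, n = 3 each). Its level was 809, 1157.7 and 1008.5 TPM in LPS 1 to 3, against 435, 468 and 525 TPM in Vehicle 1 to 3. All LPS samples lay above all Vehicle samples. The change was 1.05 (SE 0.135, 95% interval 0.73 to 1.37; adjusted p = 0.00478, limma), with 0.90, 1.3 and 0.94 in the 3 pairs.

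Krt18 (ENSRNOG00000047393), the type I partner, averaged 1322 ± 79.4 TPM in LPS and 688 ± 75.4 TPM in Vehicle (SD, n = 3 each). Its level was 1231.5, 1379.9 and 1354.8 TPM in LPS 1 to 3, against 773, 629 and 663 TPM in Vehicle 1 to 3. Again no sample overlapped. Vehicle 1 was uneven among its libraries, with 511.69 TPM in the library that stood apart and 847.54 and 960.02 TPM in the other two. The change was 0.96 (SE 0.13, 95% interval 0.65 to 1.27; adjusted p = 0.00571, limma), with 0.72, 1.13 and 1.03 in the pairs. Without the libraries that stood apart the changes of Krt8 and Krt18 were 0.98 (adjusted p = 0.0242) and 0.86 (adjusted p = 0.0408). Leaving out sample 3 raised the adjusted p to 0.236 for Krt8 and 0.256 for Krt18, with changes of 1.10 and 0.93.

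The Krt8 to Krt18 ratio stayed narrow. On the log2 scale, with 1 TPM added to each level, it was -0.61, -0.26 and -0.42 in LPS 1 to 3, against -0.79, -0.43 and -0.34 in Vehicle 1 to 3, so the groups overlapped. The difference, 0.09, did not pass an exact two-sided permutation test over 20 regroupings (p = 0.6; the smallest p the design allows is 0.1). With 3 samples a group this p does not show that the ratios were equal.

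In RefSeq's annotation of the rat assembly GRCr8, Krt8 and Krt18 are neighbouring genes on chromosome 7 with 0 protein-coding genes between them, and they are transcribed away from each other. The 250 bases before each start are shown because these neighbours changed together. Capitals mark the letters of searched motifs, the strand is that of the gene, and the sequences are RefSeq's on GRCr8, at chr7:135010340-135010589 (minus strand) for Krt8 and chr7:135035918-135036167 (plus strand) for Krt18.
Krt8: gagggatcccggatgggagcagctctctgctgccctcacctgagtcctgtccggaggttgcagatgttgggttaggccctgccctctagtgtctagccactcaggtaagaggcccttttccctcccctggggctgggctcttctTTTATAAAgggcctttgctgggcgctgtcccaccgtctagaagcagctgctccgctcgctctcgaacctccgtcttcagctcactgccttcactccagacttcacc
Krt18: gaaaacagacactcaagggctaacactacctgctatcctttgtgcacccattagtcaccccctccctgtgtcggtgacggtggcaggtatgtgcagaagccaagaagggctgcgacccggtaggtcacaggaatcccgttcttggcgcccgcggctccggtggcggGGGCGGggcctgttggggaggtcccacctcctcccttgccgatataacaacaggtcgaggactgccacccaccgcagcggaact
The windows held 60.0% G and C for Krt8 and 62.0% for Krt18, against a median of 51.2% over 33469 promoter windows of the same length. Krt8 held the TATA box letters TATAAA in both orientations, overlapping, between 106 and 99 bases before the start, and 12.9% of all windows hold these letters. Krt18 held the SP1 letters GGGCGG, 84 to 79 bases before the start, as 30.5% of all windows do. Neither window held the letters searched for AP-1 (TGANTCA, in 6.34% of windows), STAT (TTCNNNGAA, in 7.67%), the 5′ part of an NF-kappaB site (GGGANTT, in 15.0%), SOX (AACAAT, in 10.3%) or TEAD (GGAATG, in 12.1%), on either strand. A match or its absence concerns only these letters in these windows. Sequences were available for 4 of the 8 genes. In the Spp1 window, SOX letters stood 178 to 173 bases and TATA box letters 204 to 199 bases before the start, and the Havcr1 window held none of the 7 motifs.

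Krt7 (ENSRNOG00000008057), a type II keratin of ducts and transitional epithelia, averaged 947 ± 134 TPM in LPS and 1165 ± 147 TPM in Vehicle (SD, n = 3 each). Its level was 1099.9, 889 and 852 TPM in LPS 1 to 3, against 995, 1250.3 and 1250.6 TPM in Vehicle 1 to 3. LPS 1 exceeded Vehicle 1, and the groups overlapped. The change was -0.30 (SE 0.162, 95% interval -0.69 to 0.08; adjusted p = 0.175, limma), close to the median of all tested genes, and it was 0.10 after median-ratio scaling. Of the 17 alternatives it passed only without sample 1 (change -0.52, adjusted p = 0.0459).

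Krt19 (ENSRNOG00000014233), the smallest type I keratin, averaged 10.8 ± 8.01 TPM in LPS and 1.70 ± 1.54 TPM in Vehicle (SD, n = 3 each). Its level was 4.70, 19.8 and 7.74 TPM in LPS 1 to 3, against 1.16, 0.50 and 3.44 TPM in Vehicle 1 to 3. The groups did not overlap, but LPS 2 stood well above the others and Vehicle 3 came close to LPS 1. The change was 2.07 (SE 0.521, 95% interval 0.84 to 3.30; adjusted p = 0.0304, limma), with 1.45, 3.81 and 0.95 in the pairs. It was called in 8 of 17 other settings and lost in each that left out a numbered sample, with 1.20 (adjusted p = 0.103) without sample 2 and 2.38 and 2.63 without samples 1 and 3. Without the libraries that stood apart it was 2.13 (adjusted p = 0.0542), and after median-ratio scaling 2.36 (adjusted p = 0.0683). RefSeq places a long noncoding RNA, LOC102554449, across part of Krt19; strand use in counting is not given in the sources used here, so reads of overlapping genes cannot be told apart.

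The 4 keratins summed to 3271.6 ± 156 TPM in LPS and 2331.2 ± 120 TPM in Vehicle (SD, n = 3 each), 0.327% and 0.233% of all TPM. Krt7 made up 35.0%, 25.8% and 26.4% of this sum in LPS 1 to 3, against 45.1%, 53.3% and 51.2% in Vehicle 1 to 3. Every LPS sample was thus lower in Krt7 share, and LPS 1 lay nearest to Vehicle. Krt18 was the leading keratin in each LPS sample, at 40.4% ± 1.44 in LPS and 29.7% ± 4.68 in Vehicle, and Krt7 was the leading keratin in each Vehicle sample. Krt8 held 30.2% ± 4.06 in LPS and 20.4% ± 0.987 in Vehicle, and Krt19 held 0.322% ± 0.225 in LPS and 0.0717% ± 0.062 in Vehicle. The log2 ratio of Krt7 to Krt19, with 1 TPM added to each, was 7.63, 5.42 and 6.66 in LPS 1 to 3, against 8.93, 9.72 and 8.16 in Vehicle 1 to 3. No LPS sample reached the Vehicle range. The difference of -2.37 had p = 0.1 in the exact permutation test, the smallest that 3 against 3 can give. It was -1.41 without sample 2 and -3.14 when 0.1 TPM was added in place of 1 TPM.

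**Figure D2:**
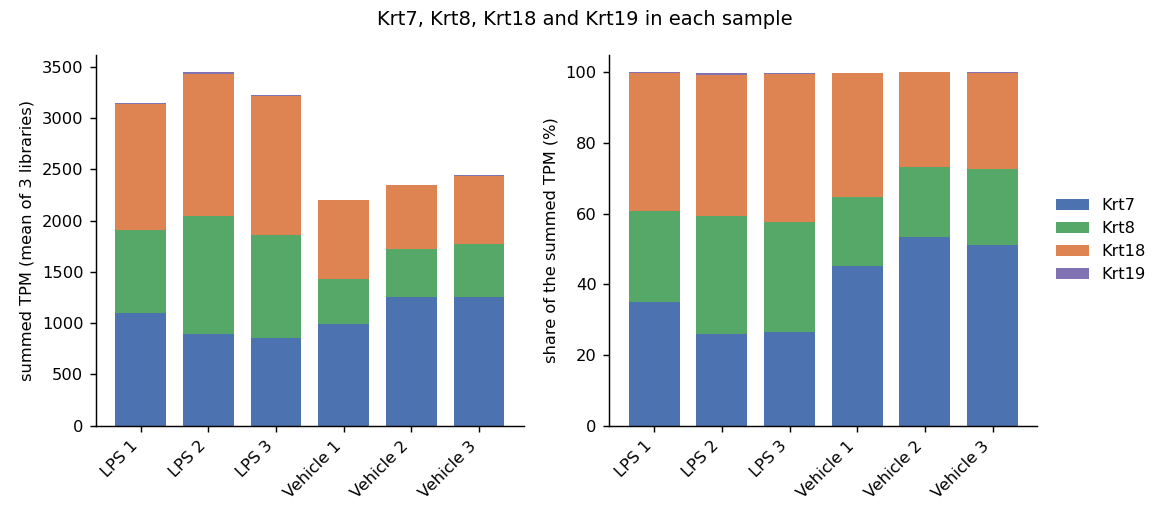
Krt7, Krt8, Krt18 and Krt19 in each sample, LPS samples left, as summed TPM (left panel) and as a share of the sum in percent (right panel). The sum lies between 3145.6 and 3445.9 TPM in LPS and between 2204.2 and 2441.7 TPM in Vehicle, and Krt7 is the largest segment in the Vehicle bars only.

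Other keratins and their desmosomal partners were mixed. Of 14 tested genes in that list, which also holds other intermediate filament genes, 2 were called higher and 2 lower, with a median change of -0.08. The shares over all tested genes were 7.17% higher and 22.2% lower. The desmosomal cadherins Dsc2 and Dsg2 were higher by 1.10 (adjusted p = 0.0199, limma) and 0.97 (adjusted p = 0.0423, limma). Dsc2 stood at 12.7, 25.0 and 15.8 TPM in LPS 1 to 3, against 7.44, 7.99 and 7.20 TPM in Vehicle 1 to 3, all LPS samples being higher. Krt80, a type II keratin linked to desmosomes, fell by 2.08 on the log2 scale (adjusted p = 0.0128, limma), to 52.2, 14.1 and 14.1 TPM in LPS 1 to 3, against 96.7, 87.8 and 111 TPM in Vehicle 1 to 3. Krt10, a keratin of stratified epithelia, averaged 1.5 TPM in LPS and 3.39 TPM in Vehicle and fell by 0.80 (adjusted p = 0.0447). Lamin A (Lmna), the most abundant tested gene of the list that was not called, averaged 79.4 TPM in LPS and 60.9 TPM in Vehicle. After median-ratio scaling Dsc2 was called higher and Krt80 lower, beside 6.62% and 3.71% of all tested genes. Under it Dsg2 (adjusted p = 0.068, limma) and Krt10 (0.107) were not called. Without the libraries that stood apart, 1 gene was called higher and 2 lower, beside 5.31% and 10.7% of all tested genes.

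Markers of urothelium and parietal epithelium, cells in which simple keratins are also made, were followed beside them. The list summed to 167 to 217 TPM in LPS and 146 to 189 TPM in Vehicle, most of it Pax8, which the collecting duct also expresses. Of 3 tested genes 0 were called in either direction, beside 7.17% higher and 22.2% lower of all tested genes. So few genes cannot show that these cells were unchanged. Pax8 averaged 161 TPM in LPS and 149 TPM in Vehicle, and other members held the rest of the sums. Among members too low to test, uroplakin Upk3a was at 0 in all libraries. Krt5 and Krt20, also too low, averaged 0.139 and 0 TPM in LPS and 0.0389 and 0.0733 TPM in Vehicle.

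The 3 injury markers differed from one another in level and spread. Havcr1 (ENSRNOG00000007243), the gene of KIM-1, a receptor for apoptotic cells, was at very low levels in both groups. Its level was 0, 0.143 and 0.0167 TPM in LPS 1 to 3, against 0.00667, 0.0167 and 0.0567 TPM in Vehicle 1 to 3. It was listed at 0 in all libraries of LPS 1, the highest library was one of LPS 2 with 0.25 TPM, and no test was made. Proximal tubule markers, from the segment in which KIM-1 is best known, summed to 2.59 to 44.7 TPM in LPS and 3.32 to 45.5 TPM in Vehicle. Of 4 tested, 0 were called, beside 7.17% higher and 22.2% lower of all tested genes. So few genes cannot show that the segment was unchanged.

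Clu (ENSRNOG00000016460), the gene of a secreted chaperone, averaged 424 ± 86.2 TPM in LPS and 194 ± 150 TPM in Vehicle (SD, n = 3 each). Its level was 341, 418 and 513 TPM in LPS 1 to 3, against 349, 185 and 49.1 TPM in Vehicle 1 to 3. LPS samples were close together, Vehicle samples were spread, and Vehicle 1 exceeded LPS 1. The change was 1.52 (SE 0.55, 95% interval 0.22 to 2.82; adjusted p = 0.0733, limma), so Clu was not called; the pairs gave -0.01, 1.18 and 3.39. Between samples the SD on the log2 scale was 0.293 in LPS and 1.44 in Vehicle, whereas between libraries of a sample it was 0.0554 in LPS and 0.289 in Vehicle. Of the 17 alternatives, Clu was called only when the 18 libraries were entered singly with an estimated correlation (adjusted p = 0.00296). Leaving out sample 3 cut the change to 0.59, and leaving out sample 1 gave 2.28 (adjusted p = 0.055). Distal convoluted and connecting tubule markers summed to 147 to 678 TPM in LPS and to 5920.2, 257 and 442 TPM in Vehicle 1 to 3. Of 9 tested, 4 were called lower, beside 22.2% of all tested genes. After median-ratio scaling 1 was called lower, Wnk4, beside 3.71%. Calb1, a calcium-binding protein of these segments, made up most of the Vehicle 1 sum: it was at 211, 25.6 and 56.6 TPM in LPS 1 to 3, against 4943, 64.8 and 129 TPM in Vehicle 1 to 3. Slc12a3, the defining cotransporter of the distal convoluted tubule, was under 0.1 TPM in all samples. Their part in the Clu values was not tested. Without the libraries that stood apart, a setting that keeps the other libraries of Vehicle 1, the Clu change was 1.58 (adjusted p = 0.105). Scara3, which RefSeq places across part of Clu, was at 0.163 TPM in LPS and 0.0722 TPM in Vehicle.

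Spp1 (ENSRNOG00000043451), which encodes the secreted phosphoprotein osteopontin, was the most variable of the abundant genes. It averaged 1284.2 ± 1037 TPM in LPS and 211 ± 261 TPM in Vehicle (SD, n = 3 each), but LPS 1 to 3 had 1736.5, 97.9 and 2018.3 TPM, against 55.2, 64.8 and 512 TPM in Vehicle 1 to 3. LPS 1 and LPS 3 lay above all Vehicle samples, and LPS 2 lay below Vehicle 3. The change was 2.51 (SE 0.703, 95% interval 0.85 to 4.18; adjusted p = 0.0393, limma), and the pairs gave 4.97, 0.61 and 1.96. The call depended on the block: without it the adjusted p was 0.153 and 4 of the 7 genes were called higher. Spp1 was also not called without sample 1 (change 1.28, adjusted p = 0.0688) or sample 3 (change 2.79, adjusted p = 0.3), and it was called without sample 2 (change 3.47, adjusted p = 0.00848).

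Libraries of one sample agreed closely on Spp1. In LPS 2 they had 123.91, 96.58 and 73.32 TPM, and in LPS 3 they had 2257.75, 2194.7 and 1602.48 TPM. The SD of log2 values was 2.46 between LPS samples and 0.283 between libraries of an LPS sample, and all 3 libraries of LPS 2 were low. Other cells that make osteopontin were represented by marker lists. Macrophage markers summed to 424, 229 and 184 TPM in LPS 1 to 3, against 239, 107 and 170 TPM in Vehicle 1 to 3. Under median-ratio scaling 3 of 9 tested were called higher and 0 lower, beside 6.62% and 3.71% of all tested genes. In the main setting 4 were called higher and 1 lower, beside 7.17% and 22.2%. Those called higher were Fcer1g, at 49.5 TPM in LPS and 17.3 TPM in Vehicle, Adgre1 (4.87 and 1.09 TPM), C1qa (13.2 and 5.16 TPM) and Tyrobp (16.7 and 9.02 TPM). Csf1r was called lower, at 1.48 TPM in LPS and 4 TPM in Vehicle, and Cd163 was at 0.0167 TPM in LPS and 0.0422 TPM in Vehicle. Loop of Henle markers summed to 155, 335 and 188 TPM in LPS 1 to 3, against 179, 155 and 185 TPM in Vehicle 1 to 3. Of 7 tested, 1 was called higher, beside 7.17% of all tested genes, and Sptssb and Cldn14 were near 0. LPS 2, the lowest LPS sample in Spp1, was the highest in loop of Henle markers and intermediate in macrophage markers. It was the lowest in distal convoluted and connecting tubule markers (147 TPM, against 678 and 299 TPM in LPS 1 and LPS 3). Endothelial markers were also lowest in LPS 2 (40.8 TPM, against 88.6 and 96.4 TPM). Among Vehicle samples, Spp1 was highest in Vehicle 3, while both of these lists were highest in Vehicle 1 (5920.2 and 111 TPM). The part of any of these cells in the Spp1 values was not tested. Without the libraries that stood apart the Spp1 change was 2.51 (adjusted p = 0.0883).

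**Figure D3:**
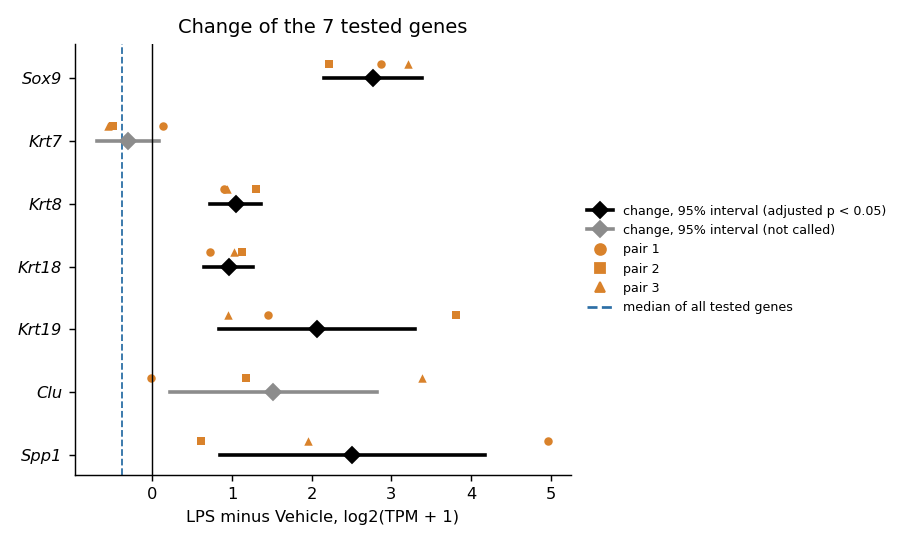
Change of the 7 tested genes, LPS minus Vehicle in log2(TPM + 1), as diamonds with 95% intervals (black where called, grey where not), the 3 pair differences as orange symbols and the median of all tested genes, -0.38, as a dashed line. Sox9, Krt8 and Krt18 have pairs close together, while the pairs of Krt19, Clu and Spp1 run from 0.95 to 3.81, from -0.01 to 3.39 and from 0.61 to 4.97.

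The list of osteopontin, clusterin and KIM-1 partners holds genes that bind or process these proteins, and some related receptors and ligands. Of its 15 tested members 2 were called higher and 4 lower, with a median change of -0.19. Of all tested genes 7.17% were called higher and 22.2% lower, with a median of -0.38. Tgm2, a transglutaminase that crosslinks osteopontin, was higher by 0.92 (adjusted p = 0.0308, limma), and Hspa5, the endoplasmic reticulum chaperone BiP, by 0.78 (adjusted p = 0.0454). Hspa5 was the most abundant of the list in LPS, while Itgb1 was in Vehicle; Hspa5 stood at 628, 1263.2 and 851 TPM in LPS 1 to 3, against 503, 437 and 597 TPM in Vehicle 1 to 3, without overlap. Integrin subunits Itgb5 and Itgb1, which form osteopontin receptors, fell by 1.06 (adjusted p = 0.0169) and 0.47 (adjusted p = 0.04). Vldlr, a lipoprotein receptor that binds clusterin, fell by 1.24 (adjusted p = 0.0204), and Adam10, a sheddase of the cell surface, fell by 1.03 (adjusted p = 0.0166). Fam20c, the kinase that phosphorylates osteopontin and the most abundant uncalled member, averaged 112 TPM in LPS and 202 TPM in Vehicle, with LPS 1 at 234 TPM. After median-ratio scaling Tgm2 was called higher, the other calls named were lost and 0 were lower. Of all tested genes 6.62% were then called higher and 3.71% lower. Without the libraries that stood apart 0 were called higher and 3 lower, beside 5.31% and 10.7% of all tested genes.

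Of 38 tested genes otherwise known from tubule injury and repair, 18 were called higher and 2 lower, beside 7.17% and 22.2% of all tested genes. The median change was 0.79, beside -0.38 for all tested genes. After median-ratio scaling 13 were higher, Lcn2, Vcam1 and Timp1 among them, and 0 lower, beside 6.62% and 3.71% of all tested genes. Without the libraries that stood apart 10 were higher and 1 lower, beside 5.31% and 10.7%. Lcn2, the iron carrier NGAL used as a urine marker of kidney injury, was highest by fold. Its level was 179, 1024 and 515 TPM in LPS 1 to 3, against 1.88, 1.24 and 2.61 TPM in Vehicle 1 to 3 (change 7.39, adjusted p = 0.000389, limma). Vcam1, an adhesion molecule of injured tubule cells, changed by 5.33 (adjusted p = 6.77e-05), to 118 TPM in LPS, against 1.78 TPM in Vehicle. Timp1, a metalloproteinase inhibitor, was at 20.3, 243 and 237 TPM in LPS 1 to 3, against 4.18, 0.95 and 3.23 TPM in Vehicle 1 to 3 (change 4.96, adjusted p = 0.0106). In all of these no LPS sample overlapped Vehicle, and for Lcn2 and Timp1 LPS 1 was the lowest of the LPS samples. Ccn1 and Ccn2, given above, are also members, and Pax2, a nephric transcription factor, was the other gene called lower (change -1.12, adjusted p = 0.029). Cst3, the gene of cystatin C and the most abundant uncalled member, averaged 1290.9 TPM in LPS and 1028.7 TPM in Vehicle.

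**Figure D4:**
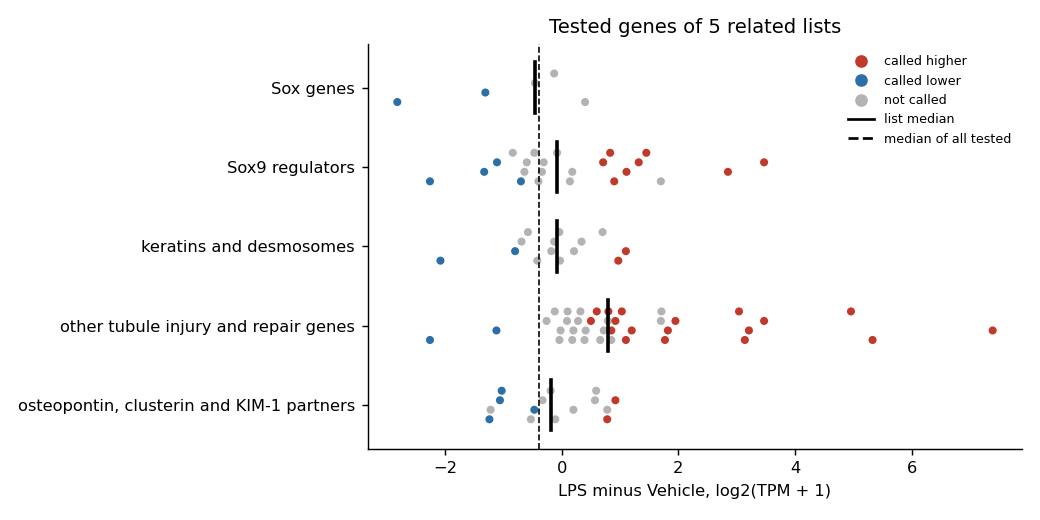
Changes of the tested genes in 5 lists, LPS minus Vehicle in log2(TPM + 1), red where called higher, blue where called lower and grey where not called, with list medians as solid lines and the median of all tested genes as a dashed line. List medians are -0.46 for Sox genes, -0.08 for Sox9 regulators, -0.08 for keratins and desmosomes, 0.79 for the other injury and repair genes and -0.19 for the partners.

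Genes with the most similar profile were sought over the 6 samples among 7274 tested genes averaging 10 TPM or more, by the root-mean-square difference of log2(TPM + 1) after centring each gene on its mean. Nearest to Sox9 were RT1-M3-1 (0.344), Rhbdf2 (0.357) and Sema4a (0.392). Rhbdf2, which helps bring the sheddase ADAM17 to the cell surface, had 36.9, 42.2 and 36.9 TPM in LPS 1 to 3, against 5.14, 5.79 and 5.88 TPM in Vehicle 1 to 3. RT1-M3-1 belongs to a family of closely related genes, so its level is uncertain. Nearest to Krt8 were Btg1 (0.0728), Pmvk (0.0961) and Resf1 (0.0971), and nearest to Krt18 were Ifitm2 (0.0604), Slc25a28 (0.0846) and Grtp1 (0.0949). Btg1, an antiproliferative gene, changed by 1.06 and Ifitm2, an interferon-induced membrane protein, by 0.93. Krt7 was closest to AABR07052523.1 (0.0241), Tmem185b (0.0269) and the glycolytic enzyme Eno1 (0.047), none of which was called.

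Krt19 ran closest to Glul (0.314), Ifitm10 (0.405) and Crem (0.436). Glul, glutamine synthetase, had 276, 853 and 659 TPM in LPS 1 to 3, against 114, 94.9 and 204 TPM in Vehicle 1 to 3, so LPS 2 and Vehicle 3 were the highest of their groups for both genes. Closest to Clu were LOC103690002 (0.273), Stk11 (0.384) and Hilpda (0.461), and all 3 were lowest in Vehicle 3. For Spp1 no close match was found. Its nearest genes were Hist2h2aa2 at 0.862, AABR07061378.1 at 1.28 and Esam at 1.5, all lowest among LPS samples in LPS 2. Profiles over 6 samples share libraries and scaling, and nearness is a description without a test.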

How the data were processed

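Libraries of polyadenylated RNA from dissected ducts were made with the SMARTer V4 Ultra Low and Nextera XT kits, with PCR of the cDNA between them, per the labels' protocols. The authors deposited TPM for each library, made with STAR 2.7.9a and RSEM 1.3.3 on Rnor_6.0, per the submitters' processing notes. The annotation, strand setting and filters were not given in the sources used here; 0 columns belonged to other samples. N columns were read as normal saline and L columns as LPS. TPM keeps no depth, so no counting interval is given, and each library is scaled to the same total, so a rise of abundant genes lowers the others.

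Each sample was the mean log2(TPM + 1) of its 3 libraries, since libraries of 1 sample are not replicates. The 12393 of 32883 genes averaging 1 TPM or more were tested with limma 3.58.1 in R 4.3.3: sample number as a block, trended empirical Bayes, two-sided, with Benjamini-Hochberg adjustment over all tested genes. The fit had 2 residual degrees of freedom and a prior of 4.97. The log scale understates changes of low genes. Same-numbered samples correlated at 0.062, -0.017 and 0.069 in their deviations from group means, across genes; the pairing comes from the study's design text. The code was tested on simulated data.

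Members and lists were chosen with earlier results of these data known. Named from each list were the called genes with the largest changes, up to 4 in each direction, and the most abundant uncalled gene; nearest profiles were the first 3. Genes named beyond this rule (EGF family members, Tead3, Dll1, markers of other cell types and genes that overlap members) were chosen after their values were seen. Alternatives were other summaries, pseudocounts of 0.1 and 0.5, filters, scalings and variance models, the fit without the block and leaving out each sample number. Leaving out the libraries that stood apart was added after seeing the data.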

Additional observations from a re-analysis of the deposited data

How the results depend on the processing

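The main setting called 5 of the 7 genes higher, and the largest departures were calls lost. With limma, 0 were called higher when libraries were summarised by their median (1019 genes higher and 4167 lower at an unadjusted p under 0.05) and when no filter on low values was used (1382 and 5352). With median-ratio scaling, quantile normalization, the robust variance model or without the libraries that stood apart, 3 were called. Leaving out each sample number gave 0 to 4 called higher and 0 to 1 called lower. Over all tested genes, 889 were called higher and 2757 lower. The median of libraries gave 0 and 0, no filter 18 and 2, median-ratio scaling 821 and 460, quantile normalization 809 and 579, the 18 libraries with an estimated correlation 1189 and 5295, and the set without libraries that stood apart 658 and 1326. Leaving out each sample number gave 0 to 1004 higher and 0 to 3595 lower. The cause of these differences was not tested.

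Without the replicate block 912 genes were called higher and 3624 lower, and of the 7 genes Spp1 alone changed its call. As pair differences under the replicate block, the Krt8 to Krt18 difference was 0.09 (exact sign-flip p = 0.5) and the Krt7 to Krt19 difference -2.37 (exact sign-flip p = 0.25). Krt7 changed sign under median-ratio scaling (0.10). Changes of Sox9, Krt8, Krt18, Krt19, Clu and Spp1 were positive in all 17 alternatives; Sox9, Krt8 and Krt18 were called in 14, Krt19 in 8, Spp1 in 6 and Clu in 1. Over those alternatives the adjusted p ran from 4.57e-06 to 0.196 for Sox9, from 3.83e-06 to 0.236 for Krt8 and from 0.000146 to 0.256 for Krt18. Depth is unknown, and 3 samples a group limit precision.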

Other observations

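Several listed genes lay below the filter on low values but were seen mainly in LPS samples; they were picked after their values were seen and were not tested. Mertk, a receptor for apoptotic cells, stood at 0.22, 0.953 and 1.74 TPM in LPS 1 to 3, against 0.257, 0.16 and 0.303 TPM in Vehicle 1 to 3. Mmp3, a metalloproteinase that cleaves osteopontin, was listed at 0 in LPS 1 and stood at 1.33 and 1.14 TPM in LPS 2 and LPS 3, against 0.0267 to 0.0667 TPM in Vehicle samples. Mmp7, a metalloproteinase known from tubule injury, had 0.26 to 0.473 TPM in LPS samples and 0 to 0.0367 TPM in Vehicle samples. Krt17, a keratin of stressed epithelia, was listed at 0 in LPS 1 and Vehicle 1, with 0.433 and 0.483 TPM in LPS 2 and LPS 3, against 0.02 TPM in Vehicle 2 and in Vehicle 3. In Mertk, Mmp3 and Krt17, LPS 1 was at or near the Vehicle level. Other listed genes below the filter went the other way, among them Ankrd1, Sox15 and Jag2. Ankrd1 stood at 0.277, 0.117 and 0.0767 TPM in LPS 1 to 3, against 1.55, 0.817 and 0.773 TPM in Vehicle 1 to 3. Sox15 averaged 0.0589 TPM in LPS and 0.26 TPM in Vehicle, and Jag2 0.03 and 0.177 TPM.

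The genes called higher held 11.1%, 20.8% and 20.1% of all TPM in LPS 1 to 3, against 5.07%, 4.84% and 5.20% in Vehicle 1 to 3. They were chosen by the same comparison, so this is a description. LPS 1 was also the LPS sample nearest to Vehicle in the Krt7 share of simple keratins. The same held for the levels of Sox9, Krt7, Krt8, Krt18, Krt19 and Clu beside the Vehicle mean. For Spp1 the nearest was LPS 2.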
